A study of Mus musculus with 6 samples.

Results

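The genes described here encode the proteins of the 2 ribosomes of mouse collecting duct cells. They are the protein-coding genes whose symbols begin with Rpl or Rps (cytosolic ribosome) or with Mrpl or Mrps (mitochondrial ribosome), without the Rps6k kinases and without pseudogenes. The rule gave 164 genes, 86 cytosolic and 78 mitochondrial, of 24938 genes that could be matched to the deposited transcript identifiers. All but Rps27rt had at least 1 identifier. Rps19bp1 is a member through its symbol only, since it encodes a protein that binds a ribosomal protein. Total RNA was sequenced in 6 libraries of collecting duct cells from male C57BL/6J mice, 3 after 5 days on a low-NaCl diet (0.01 to 0.02% sodium) and 3 after 5 days on a high-NaCl diet (2.4% sodium). How the cells were isolated is not in the labels, nor is it whether every library came from an animal of its own. The p-values therefore refer to differences among 6 libraries, part of which can be technical. In such bulk libraries, fewer cells of a type and less RNA per cell cannot be told apart.

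The cytosolic ribosome joins a small subunit, which reads the mRNA, to a large subunit, which forms the peptide bonds. Its proteins are encoded in the nucleus, and many of their mRNAs begin with a run of pyrimidines at the cap, the 5′ terminal oligopyrimidine tract, through which mTOR signalling sets their translation. The mitochondrial ribosome makes the few proteins encoded in mitochondrial DNA, which are subunits of the respiratory chain and ATP synthase, and all of its own proteins are imported from the cytosol. Collecting duct cells reabsorb sodium in principal cells and move acid or base in intercalated cells, and both run ion pumps that use ATP.

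The libraries held 40101899 to 46861531 counts. Markers are said here to fall or rise at an adjusted p under 0.05 in edgeR's quasi-likelihood test between the diets. Over all tested genes, 1.74% fell and 1.72% rose on the low-NaCl diet. Of 10 principal cell markers, 8 were tested and 3 fell. The 10 summed to 3148 to 4786 CPM (counts scaled to library size) on the low-NaCl diet, against 8805 to 10960 on the high-NaCl diet. Of 12 intercalated cell markers, all tested, 6 rose, with summed levels of 4553 to 8126 against 3639 to 4529 CPM. Of 5 connecting tubule markers, 3 were tested and 2 fell, with summed levels of 28697 to 31833 against 30107 to 38932 CPM. The 2 that fell were a small part of that sum. Calb1 measured 366 to 479 against 892 to 1169 CPM, and Trpv5 16.1 to 35.4 against 47.8 to 97.8 CPM. Markers of the thick limb and distal convoluted tubule summed to 441 to 545 against 292 to 350 CPM (1 of 6 rose, 5 tested). Those of the proximal tubule summed to 80.3 to 125 against 65.9 to 79.1 CPM (1 of 11 rose, 9 tested). Both sums were higher on the low-NaCl diet without overlap. Blood and podocyte markers summed to 5.45 to 45.3 against 18.4 to 41.3 CPM. Summed markers of immune cells were at most 0.937 CPM, and those of endothelial and stromal cells at most 5.05 CPM. Markers at 0 were the principal cell marker Gata3, Cd68, Ptprc and Itgam of immune cells, and Pecam1, Pdgfrb and Emcn of endothelial and stromal cells. Of these, Emcn was 65.9% and Ptprc 19.2% countable while for the others, at most 2.68% countable, a 0 says little. The part of these marker shifts in the values below was not tested. The mitochondrial chromosome took 29.9% of counts in high-NaCl library 1 and 28.7% in high-NaCl library 3, against 20.5 to 21.9% in the other 4 libraries.

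The start sites of the members were compared because the pyrimidine tract belongs to the cap. RefSeq promoter windows on build GRCm38.p6, from 250 bases before to 50 bases after the annotated start, were matched to 135 of the 164 members by symbol. A C at the start followed by an unbroken run of C and T, at least 5 bases in all, stood in 14 of 66 cytosolic members (21.2%), in 0 of 69 mitochondrial members and in 3.01% of 27025 genes. The windows of the 5 cytosolic members with the longest tracts and of 3 mitochondrial members without one are shown from 10 bases before the start, with the tract in capitals. They lie at chr14:18270967-18270996 (minus strand), chr2:39005112-39005141 (minus), chr17:27635225-27635254 (minus), chr17:33955646-33955675 (minus), chr4:86857348-86857377 (minus), chr11:120484627-120484656 (plus), chr16:92058326-92058355 (plus) and chr6:71823765-71823794 (minus), in the order printed.
Rpl15: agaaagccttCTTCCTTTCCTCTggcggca
Rpl35: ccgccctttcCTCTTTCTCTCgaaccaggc
Rps10: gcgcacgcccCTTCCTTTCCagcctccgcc
Rps18: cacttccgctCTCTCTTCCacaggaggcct
Rps6: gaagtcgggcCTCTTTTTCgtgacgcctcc
Mrpl12: gcctcctcccggatagagcgtcgcttccgc
Mrps6: tcgccgtccgggagctgaccggccgtgttc
Mrpl35: ttgagtccactgcggccaccgtaggcaggc

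Within 5 bases of the annotated start on either side, such a tract began in 45.5% of cytosolic members, 24.6% of mitochondrial members and 21.2% of all genes. Another motif was shared by both ribosomes. CCGGAAG, the core bound by ETS factors, stood on either strand in 39.4% of cytosolic and 37.7% of mitochondrial promoter windows, against 9.93% of all. AAGATGGC, known as a YY1 core, stood in 9.09% of cytosolic and 17.4% of mitochondrial windows, against 3.19% of all. Neither of these motifs contains the other, and a match is a description of the letters only.

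No ribosomal protein gene passed the test between the diets. Of the 164 members, 137 had enough counts to be tested, 74 cytosolic and 63 mitochondrial, and 0 of either were called at an adjusted p under 0.05 (edgeR's quasi-likelihood test, Benjamini-Hochberg adjustment over 10567 genes). Over all tested genes, 366 or 3.46% were called, 1.72% higher and 1.74% lower on the low-NaCl diet. DESeq2 and limma-voom called 0 members too. At an unadjusted p under 0.05 stood Rpl34 and, lower, Rpl36 among the cytosolic members, and Mrpl19, Mrpl35 and Mrpl38 among the mitochondrial ones, against 18.3% of all tested genes. No tested member had a fitted difference of 2-fold.

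The 2 ribosomes nevertheless had different medians. The median log2 fold change, low-NaCl over high-NaCl, was -0.11 over the cytosolic members, with 23 above 0 and 51 below. Over the mitochondrial members it was 0.02, with 37 above and 26 below, and over all tested genes -0.0021, with 5267 above and 5300 below. With 1 library left out the cytosolic median ran from -0.20 (low-NaCl library 1 left out) to -0.048 (low-NaCl library 2), and was -0.069 and -0.055 when low-NaCl library 3 or high-NaCl library 1 was dropped. The mitochondrial median ran from -0.086 to 0.085. Without high-NaCl libraries 1 and 3, those with the most mitochondrial chromosome counts, the cytosolic median was 0.052 and the mitochondrial one 0.18. The fitted values ran from -0.52 to 0.97 among cytosolic members and from -0.45 to 0.62 among mitochondrial members, with a median SE of 0.22 and 0.16. Among cytosolic members with a mean of at least 10 CPM, 35 of 43 lay below 0 (81.4%), where 48.2% of 4704 such genes did. Large and small subunits lay on the same side in the cytosolic ribosome, with medians of -0.10 over 45 and -0.08 over 26 members. In the mitochondrial ribosome they were 0.07 over 41 large subunit and -0.03 over 22 small subunit members.

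**Figure D1:**
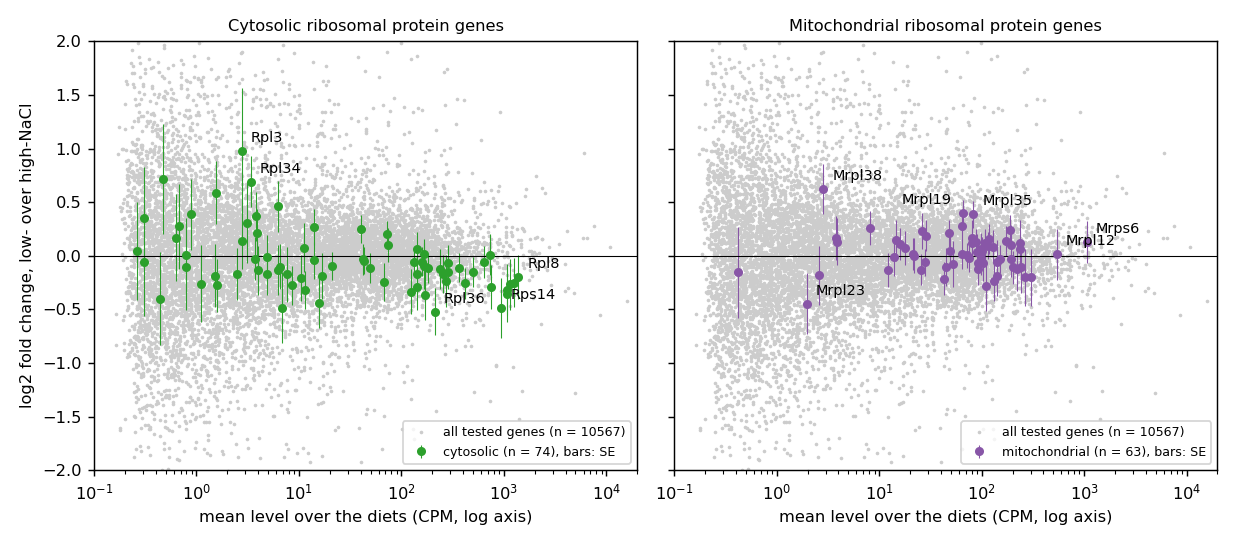
Fitted log2 fold change (low-NaCl over high-NaCl, vertical axis) against the mean level in CPM (horizontal log axis) for the 74 cytosolic (left) and 63 mitochondrial (right) members tested, with bars of 1 SE, over all 10567 tested genes in grey. Most highly counted cytosolic members lie below 0, and mitochondrial members lie on both sides; grey genes outside the vertical range are not drawn.

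The level of each set was summed for every library. Summed over members, the cytosolic level was 14673, 11663 and 12343 CPM in low-NaCl libraries 1, 2 and 3 and 17789, 11849 and 15442 CPM in high-NaCl libraries 1, 2 and 3. High-NaCl library 1 was the highest of the 6 and low-NaCl library 2 the lowest, and the diets overlapped. The mitochondrial level was 8353, 6695 and 6855 CPM against 8198, 5900 and 7499 CPM. Here low-NaCl library 1 was highest and high-NaCl library 2 lowest, and the diets overlapped on this scale, which uses TMM factors. Scaled by total counts only, the mitochondrial level was 8062, 7292 and 7204 against 7094, 6586 and 7028, and every low-NaCl library lay above every high-NaCl library. As shares of all counts these are 0.806, 0.729 and 0.720% against 0.709, 0.659 and 0.703%. Total counts include the mitochondrial chromosome, which took 29.9 and 28.7% in high-NaCl libraries 1 and 3, against 20.5 to 21.9% elsewhere. Relative to counts without that chromosome, the mitochondrial level was 10306, 9166 and 9116 against 10119, 8429 and 9853, and the diets overlapped. The cytosolic genes made up 1.42, 1.27 and 1.30% of all counts against 1.54, 1.32 and 1.45%. Their summed levels overlapped between the diets on each of these scales.

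The balance between the ribosomes did separate the diets. Within each library, which needs no scaling between libraries, the summed mitochondrial level was 56.9, 57.4 and 55.5% of the summed cytosolic level on the low-NaCl diet. It was 46.1, 49.8 and 48.6% on the high-NaCl diet. Every low-NaCl library thus lay above every high-NaCl library, with means of 56.6% ± 0.973 against 48.1% ± 1.89 (SD, n = 3 each). As a score over chosen members, picked after its values were seen, it was given no p. Differences between libraries that go with GC content or transcript length need not cancel in it. Tested cytosolic members had a median transcript length of 745 bases and tested mitochondrial ones 1219. The part of GC content and length in the ratio was not tested. Without Mrps6, the most counted mitochondrial member, the ratio was 47.3 to 48.8% against 39.5 to 43.3%. Without the 10 most counted members of each ribosome it was 89.6 to 90.7% against 75.2 to 83.7%, and over fully countable members 41.2 to 43.8% against 36.3 to 37.6%, so the diets did not overlap in any of these versions.

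The same ratio was also broken down by gene. Its members make up the 2 sums, so these counts describe the ratio and are no separate support for it. Set relative to the summed cytosolic level, 22 of 63 mitochondrial members were higher in every low-NaCl library than in any high-NaCl library and 0 were lower, where 14.4% of all tested genes were higher and 5.57% lower. Set relative to the summed mitochondrial level, 16 of 74 cytosolic members were lower on the low-NaCl diet without overlap and 1 was higher, where 13.4% of all genes were lower and 5.75% higher. High-NaCl library 2, whose mitochondrial chromosome share was like that of the low-NaCl libraries, also lay below all of them in the ratio, at 49.8%. In lane 1, the only sequencing lane with both diets (1 library each), the ratio was 56.9% against 46.1%. Low-NaCl libraries 2 and 3 were in lane 2 and high-NaCl libraries 2 and 3 in lane 3, so lane and diet cannot be told apart there. Whether the mitochondrial chromosome share or the lane has a part in the ratio was not tested.

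**Figure D2:**
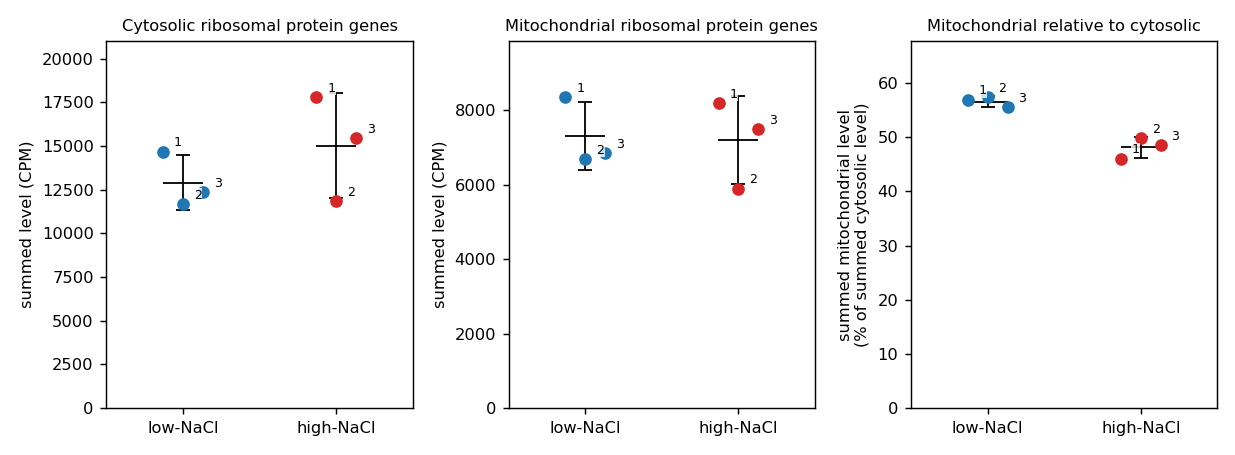
Summed level of the cytosolic (left) and mitochondrial (middle) ribosomal protein genes in CPM and the mitochondrial level as a percentage of the cytosolic level (right), by diet. Points are libraries with their replicate number, lines the mean and SD (n = 3). With the TMM factors used here the diets overlap in both sums. Scaled by total counts only, the mitochondrial sums do not overlap, and relative to counts without the mitochondrial chromosome they do. The ratio is 55.5 to 57.4% on the low-NaCl diet and 46.1 to 49.8% on the high-NaCl diet, in counts and not in amounts of mRNA.

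Levels were set side by side as CPM per kilobase of countable length, a scale that does not correct for copies elsewhere in the genome. The highest cytosolic members named here were Rplp1 at 2659, Rps10 at 2229, Rps15 at 2061, Rpl8 at 1603 and Rps14 at 1580. The value of Rps10 rests on 56 countable bases only. Rplp1 encodes an acidic protein of the stalk, the arm of the large subunit that recruits elongation factors. The 10 most counted cytosolic members held 68.0% of the cytosolic counts. Among mitochondrial members Mrps6 stood first at 1666, followed by Mrpl12 at 570.3, Mrpl20 at 453, Mrpl54 at 412, Mrps16 at 387 and Mrpl34 at 369. Mrps6 alone held 14.6% of the mitochondrial counts. Mrpl12, a large subunit protein of the mitochondrial stalk, is also known to bind the mitochondrial RNA polymerase.

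The 3 stalk proteins were all highest in high-NaCl library 1. Rplp0, which anchors the stalk, measured 1168, 943 and 1000 CPM in low-NaCl libraries 1, 2 and 3 and 1627, 820 and 1297 CPM in high-NaCl libraries 1, 2 and 3. High-NaCl libraries 1 and 3 were the 2 highest and high-NaCl library 2 the lowest. Its log2 fold change was -0.27 (SE 0.24, adjusted p = 0.603). Rplp1 measured 1352, 952 and 1102 against 1700, 959 and 1401 CPM, and Rplp2 309, 210 and 233 against 392, 199 and 295 CPM. Both again were highest in high-NaCl library 1, and the diets overlapped, with log2 fold changes of -0.25 and -0.24.

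Of the 26 tested cytosolic small subunit members, 11 (42.3%) were highest in high-NaCl library 1. In 9 (34.6%), high-NaCl libraries 1 and 3 were the 2 highest. Over all tested genes these shares were 22.7% and 12.5%, and over mitochondrial members 30.2% and 6.35%. Rps14, which lies in the platform of the small subunit, measured 966, 664 and 724 CPM on the low-NaCl diet and 1512, 663 and 1132 CPM on the high-NaCl diet. High-NaCl library 1 was 2.28 times high-NaCl library 2, so the range within the high-NaCl diet covered all low-NaCl libraries. The log2 fold change was -0.49 (SE 0.28, adjusted p = 0.397). Rps15, also a small subunit protein, measured 1163, 788 and 876 against 1574, 800 and 1256 CPM, with the same order of the high-NaCl libraries. Its log2 fold change was -0.36, and the diets overlapped.

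Rpl36, a large subunit protein, was the cytosolic member with the smallest p among those lower on the low-NaCl diet. It measured 200, 154 and 168 CPM against 315, 172 and 262 CPM, and only high-NaCl library 2 lay within the low-NaCl range. The log2 fold change was -0.52 (SE 0.22, adjusted p = 0.238). Without high-NaCl library 2 it passed the test at -0.73 (adjusted p = 0.0328), and without high-NaCl libraries 1 and 3 it was 0.0021. Rpl7, also of the large subunit, was the single tested cytosolic member lower on the low-NaCl diet without overlap, at 480, 482 and 473 against 496, 545 and 553 CPM (log2 fold change -0.15, adjusted p = 0.604). Over all genes 11.6% were lower without overlap and 12.3% higher.

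Of the 3 tested cytosolic members that were higher on the low-NaCl diet without overlap, all were large subunit genes or paralogs of one. Rpl34 measured 5.29, 3.28 and 3.96 CPM against 2.31, 2.62 and 2.82 CPM, a log2 fold change of 0.69 (SE 0.24, adjusted p = 0.152), over 32.9% of its exonic bases. Rpl27a measured 45.7, 43.8 and 42.1 against 32.2, 41.0 and 37.4 CPM. Rpl7l1, a paralog of Rpl7 known to act in ribosome assembly, measured 77.4, 80.8 and 76.5 against 66.4, 73.1 and 64.1 CPM. The log2 fold changes of the last 2 were 0.25 and 0.20 (adjusted p = 0.366 and 0.408).

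Some highly counted cytosolic members had another order of libraries. Rpl4, a large subunit protein that lines the exit tunnel, measured 677, 815 and 729 CPM against 579, 905 and 718 CPM. High-NaCl library 2 was its highest and high-NaCl library 1 its lowest library, the reverse of Rplp0. Rpl23 had the same highest and lowest libraries, at 139, 151 and 147 against 117, 173 and 128 CPM. Neither differed between the diets beyond this spread (log2 fold changes 0.01 and 0.06). High-NaCl library 1 was the highest library in 32 of 74 cytosolic members (43.2%), in 19 of 63 mitochondrial members (30.2%) and in 22.7% of all tested genes.

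**Figure D3:**
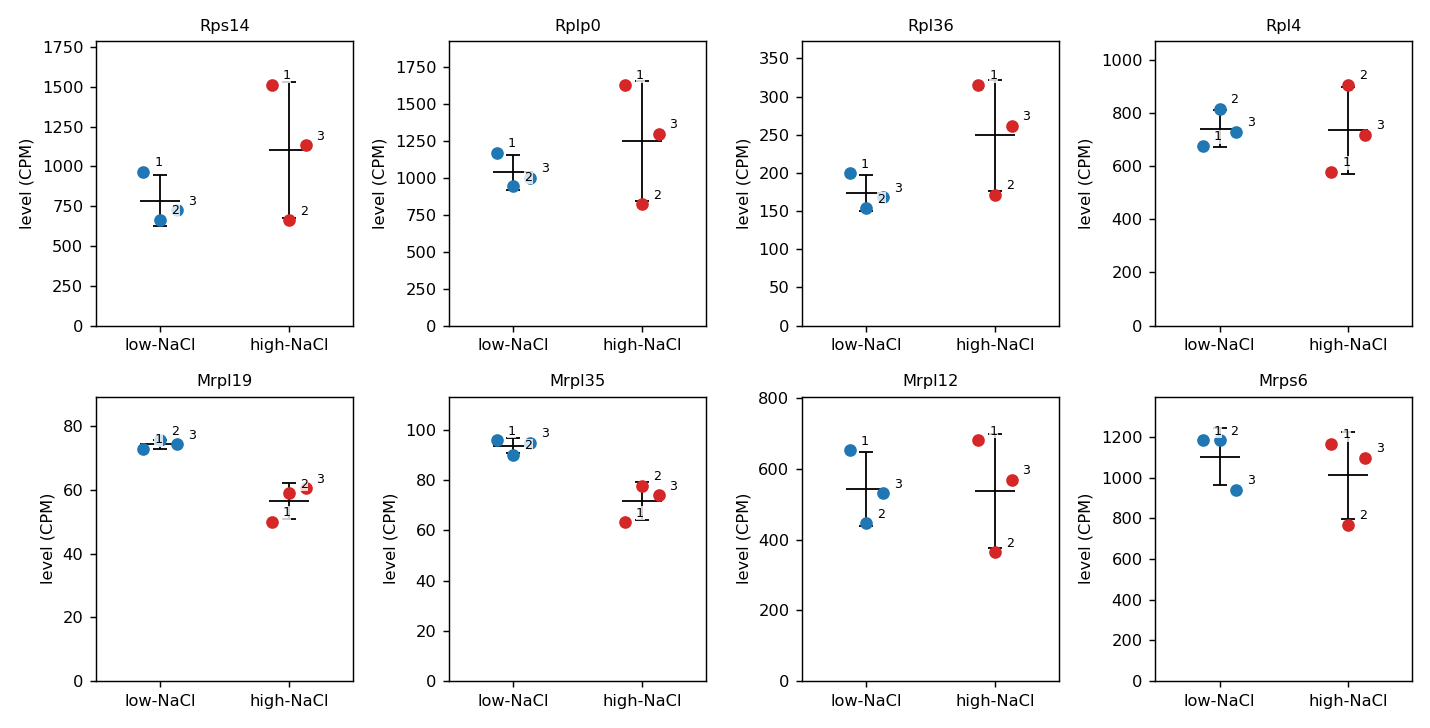
Level in CPM of 8 ribosomal protein genes by diet. Points are libraries with their replicate number, lines the mean and SD (n = 3). High-NaCl library 1 is highest for Rps14, Rplp0, Rpl36 and Mrpl12 and lowest for Rpl4, Mrpl19 and Mrpl35, and the diets do not overlap for Mrpl19 and Mrpl35.

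In the mitochondrial ribosome the smallest p-values belonged to large subunit genes that were higher on the low-NaCl diet. Mrpl19 measured 73.0, 75.7 and 74.4 CPM in low-NaCl libraries 1, 2 and 3 and 50.1, 59.0 and 60.6 CPM in high-NaCl libraries 1, 2 and 3. All low-NaCl libraries lay above all high-NaCl libraries, with a log2 fold change of 0.39 (SE 0.13, adjusted p = 0.126). Mrpl35 measured 96.0, 90.2 and 94.9 against 63.2, 77.7 and 74.1 CPM, again without overlap (0.39, SE 0.13, adjusted p = 0.142). Mrpl51 measured 75.8, 69.7 and 68.0 against 50.7, 65.0 and 60.2 CPM (0.28, adjusted p = 0.313). In all, 8 of 63 mitochondrial members were higher on the low-NaCl diet without overlap and 0 lower, where 12.3% and 11.6% of all tested genes were. The other 5 were Mrpl38, Mrpl50, Mrpl49, Mrps25 and Mrps22.

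The most counted mitochondrial members did not differ beyond the spread between libraries. Mrps6, of the small subunit, measured 1186, 1184 and 941 CPM against 1168, 769 and 1099 CPM. High-NaCl library 2 was the lowest, and the other libraries overlapped (log2 fold change 0.12, SE 0.20, adjusted p = 0.79). Mrpl12 measured 654, 447 and 531 against 682, 364 and 570 CPM, with high-NaCl library 1 at 1.88 times high-NaCl library 2 (0.01, SE 0.24). Mrpl20, of the large subunit, measured 352, 225 and 264 against 442, 209 and 316 CPM (-0.20, SE 0.27). Mrpl23 had the smallest p of the mitochondrial members lower on the low-NaCl diet, at 2.14, 1.43 and 1.39 against 2.83, 1.72 and 2.24 CPM (-0.45, SE 0.29, adjusted p = 0.455).

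Members with a tract exactly at the annotated start had other medians than those without one there. The 11 tested members with a tract had a median log2 fold change of -0.17, with 1 above 0 and 10 below, and 0 were called. The 44 tested cytosolic members with a promoter window and no tract had a median of -0.08, with 15 above and 29 below. The median log2 ratio of high-NaCl library 1 to high-NaCl library 2 was 0.47 with a tract and 0.04 without. The annotated start decides which members hold a tract, and these medians were not tested. At the start itself 14 of 66 cytosolic members had one, and within 5 bases of it 30. The group without a tract also holds Rpl10a and Rps12, whose counts came from intron forms. The medians therefore do not compare mRNAs with and without a tract at the cap.

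Some deposited identifiers of members were not the mature mRNA. Reads in exons shared by several identifiers were not counted, so a gene's counts come only from bases in exons of a single identifier, here called countable bases. For 8 tested members, 6 cytosolic and 2 mitochondrial, at least 50% of counts came from identifiers whose countable bases lay mostly outside the exons of protein-coding transcripts, in introns. Of the 18 such identifiers that were tested, 7 also overlapped a small nucleolar RNA gene. The intron sequence counted in 4 of them is shown by its first 40 bases, in lower case. The borders printed, with the last 20 exon bases in capitals, were chosen at annotated ends of coding exons. They lie on GRCm38 at chr15:80081575-80081634 (minus strand), chr10:23786585-23786644 (minus), chr17:28329028-28329087 (plus) and chr11:116138402-116138461 (minus), and each intron opens with the gt of a splice donor.
Rpl3: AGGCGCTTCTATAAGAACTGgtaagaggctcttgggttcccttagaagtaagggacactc
Rps12: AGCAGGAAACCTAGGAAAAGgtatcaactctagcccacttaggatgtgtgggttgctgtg
Rpl10a: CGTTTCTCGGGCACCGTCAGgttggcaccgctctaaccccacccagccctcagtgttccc
Mrpl38: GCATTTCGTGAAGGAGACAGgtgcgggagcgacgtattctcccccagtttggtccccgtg

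The intron form of Rpl3, a core protein of the peptidyl transferase region, had 130, 182 and 152 counts in low-NaCl libraries 1, 2 and 3. It had 25, 216 and 26 counts in high-NaCl libraries 1, 2 and 3, so high-NaCl library 2 was the highest of the 6 in counts and libraries 1 and 3 were far below all others. The log2 fold change of this form was 0.96 (adjusted p = 0.446). Summed over its identifiers, Rpl3 had the highest fitted value of the cytosolic members, 0.97 (SE 0.59, adjusted p = 0.427), with 99.3% of its counts outside the mRNA exons. Without high-NaCl library 2 it was called, at 2.41 (adjusted p = 0.00402), and without high-NaCl libraries 1 and 3 it was -0.18.

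The intron form of Rps12, of the small subunit, whose countable bases also overlap the small nucleolar RNA gene Gm23130, had 105, 178 and 156 counts against 62, 242 and 74, with the same 2 libraries lowest. Rpl10a, a large subunit protein at the exit site, had 267, 312 and 345 counts against 176, 371 and 146, again with high-NaCl libraries 1 and 3 lowest. Mrpl38 had 144, 152 and 140 counts against 62, 125 and 98, and in CPM the diets did not overlap (3.58, 3.46 and 3.30 against 1.71, 2.39 and 2.61). Its log2 fold change as a gene was 0.62 (SE 0.23, adjusted p = 0.184), a value of the intron form and not of the mRNA.

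High-NaCl libraries 1 and 3 were the 2 lowest in 9 of these 18 identifiers (50%), in 12 of the 137 identifiers of members counted in mRNA exons (8.76%) and in 252 of 1405 identifiers outside the mRNA exons over all genes (17.9%). Fitted alone, 0 of the 18 and 0 of the 137 were called, where 2.82% of 12192 identifiers were. In sum the forms outside the mRNA exons had 1100, 1316 and 1316 counts against 694, 1688 and 688 in the cytosolic ribosome. In the mitochondrial ribosome they had 419, 458 and 444 counts against 297, 591 and 295. Both sums were lowest in high-NaCl libraries 1 and 3, the libraries with the highest share of mitochondrial chromosome counts. Whether that share has a part in these values was not tested.

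**Figure D4:**
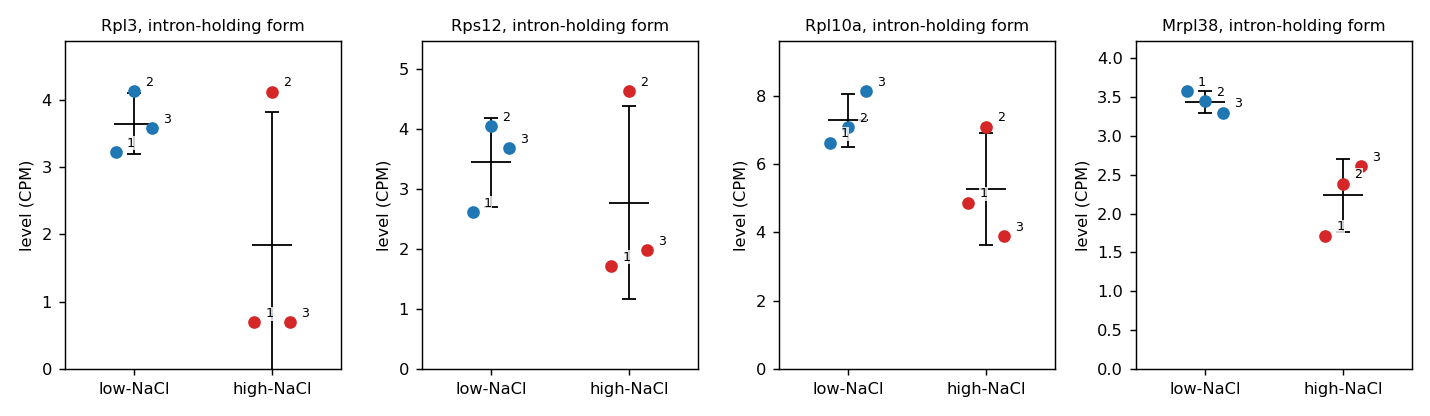
Level in CPM of the intron-holding identifiers of Rpl3, Rps12, Rpl10a and Mrpl38 by diet. Points are libraries with their replicate number, lines the mean and SD (n = 3, bars ending at 0). High-NaCl libraries 1 and 3 are the 2 lowest for Rpl3, Rps12 and Rpl10a, and for Mrpl38 all high-NaCl libraries lie below all low-NaCl libraries.

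Members without counts were mostly members that could not be counted. In the cytosolic ribosome 4 members had 0 counts in all libraries: Rpl10l, Rpl22l1, Rps21 and Rps28. In the mitochondrial ribosome 7 had 0: Mrpl2, Mrpl32, Mrpl53, Mrpl58, Mrps10, Mrps11 and Mrps36. Rpl22l1 had 3 countable bases, Rps28 had 4 and Rps21 had 102 (20.7% of its exonic bases). The mitochondrial ones had 0 to 42 countable bases, at most 5.26% of their exonic bases. Their 0 says little or nothing of expression. Rpl10l was 100% countable over 1023 bases, and 0 counts allow up to 0.0574 to 0.0825 CPM per library (3 counts, counting error only). Rpl10l, a copy of Rpl10 without introns, is known for its expression in testis.

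Other paralogs ranged widely in level. Rpl39l, fully countable, had 3 counts, all in low-NaCl library 2. Rpl3l, the paralog of Rpl3 known from striated muscle, measured 0.522, 0.273 and 0.259 CPM against 0.248, 0.325 and 0.239 CPM over 48.8% of its exonic bases. Rpl36al measured 0.422, 0.341 and 0.141 against 0.275, 0.344 and 0.319 CPM. Rps27l, a p53 target in the family of Rps27, was well counted, at 269, 197 and 212 against 294, 195 and 251 CPM (log2 fold change -0.13, adjusted p = 0.776). The diets overlapped for all of these.

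The countable share and copies elsewhere in the genome limited levels more widely. In the cytosolic ribosome 32 of 85 matched members were under 50% countable and 43 fully countable, and in the mitochondrial ribosome 26 and 33 of 78. Cytosolic members shared a median of 45.3% of the 31-base words of their mRNAs with transcripts of other genes, mitochondrial members 7.0% and all protein-coding genes 1.15%. Among fully countable cytosolic members, the 8 without an annotated pseudogene copy had a median of 339 CPM per kilobase, and the 35 with at least 1 copy 56.8. Whether reads that match several places were lost was not tested, and levels of members with copies may be incomplete.

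**Figure D5:**
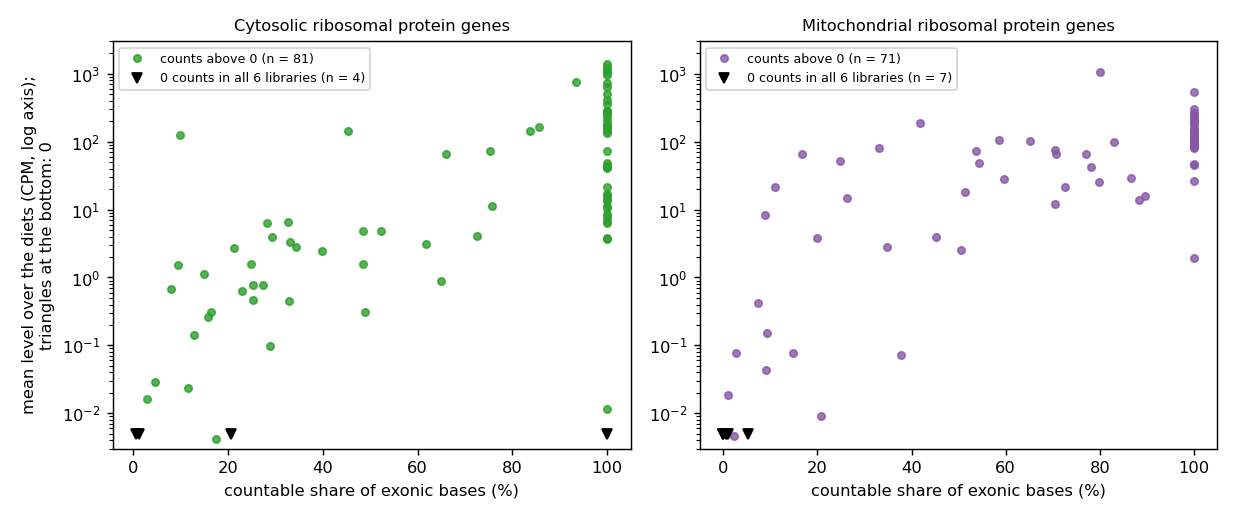
Mean level in CPM over the diets (log axis) against the countable share of exonic bases for the 85 cytosolic (left) and 78 mitochondrial (right) members with an identifier. Triangles at the bottom are members with 0 counts in all libraries, 4 and 7, of which only Rpl10l was fully countable.

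Genes around the ribosomes were also not called. Of 33 tested genes of cytosolic ribosome assembly 0 were called, where 3.46% of all tested genes were. They had a median log2 fold change of 0.17. The smallest p there was that of Rrp12, which acts in export of the pre-ribosomal subunits, at 24.4, 27.7 and 28.3 against 20.4, 17.0 and 16.5 CPM (0.58, adjusted p = 0.0658). Its diets did not overlap. Of 15 translation factors and other genes with a pyrimidine tract 0 were called, with a median of -0.21, and Eif4a2, an RNA helicase of translation initiation, had the smallest p at 6.98, 7.76 and 6.67 against 10.6, 10.5 and 10.1 CPM (-0.54, adjusted p = 0.101). Nor were any called of 9 mitochondrial translation factors (median 0.24), 20 genes of mitochondrial ribosome assembly (0.01), 8 of RNA polymerase I (-0.06) or 10 of the signalling to ribosomal protein synthesis (-0.03). In these 4 lists the smallest p-values were those of Taco1, Dhx30, Twistnb and Rheb, with log2 fold changes of 0.34, 0.88, -0.43 and 0.43 and adjusted p-values of 0.183, 0.14, 0.321 and 0.309.

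Ribosomal proteins whose symbols fall outside the rule were not called either, 0 of 3 tested cytosolic and 0 of 4 tested mitochondrial ones. Gadd45gip1, a mitochondrial large subunit protein, measured 187, 115 and 137 against 256, 118 and 186 CPM (log2 fold change -0.35, adjusted p = 0.545). High-NaCl library 1 was the highest, and the diets overlapped.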

How the data were processed

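Total RNA of 6 libraries, 3 per diet, was analysed from the authors' deposited read counts per UCSC transcript identifier. Per the file headers, the authors counted with featureCounts 1.5.0-p3 over exons, with no option for strand, overlap or multiple mapping. The build is mm10, per the submitters' processing notes, which also name Subread, FastQC and edgeR; the aligner is not given in the sources used here. By that program's defaults, strand was ignored, reads of a gene and of one overlapping it on the other strand were not separated, and reads over exons of more than 1 identifier went uncounted.

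The 59121 identifiers were matched to GENCODE M21 genes of GRCm38 by identical introns (41510), else by at least 50% of exonic bases on the same strand (11061), which gave 24938 genes. Another 6550 had no match and, with 5.57% of counts, were used in the library sizes alone. The test was that of edgeR 4.0.16 (R 4.3.3): library size from all counts (40101899 to 46861531), TMM factors, filterByExpr by diet, robust glmQLFit and glmQLFTest, with Benjamini-Hochberg adjustment over 10567 genes and a threshold of 0.05. CPM use the TMM factors. Log2 fold changes are low-NaCl over high-NaCl, with an SE taken as their size over the root of F. The biological coefficient of variation was 21.6%. DESeq2 1.42.0, limma 3.58.1 (voom), other scalings and filters, a replicate block, a lane term (lanes named in the file headers) and libraries left out were tried. The scripts were tested on simulated data. Descriptive values used Python 3.11.15 and pandas 2.3.3, and log2 ratios of single libraries add 0.1 CPM.

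Members, gene lists and rules were chosen with earlier results of these data known. Genes were named by a rule: called members, the 6 smallest p-values in each direction and the 6 highest levels per kilobase in each ribosome, members with 0 counts, paralogs and stalk proteins, and of other lists each called gene or the one with the smallest p. Rpl4, Rpl23, Rpl7, Rps4x and the non-overlapping mitochondrial members outside this rule were named after their values were seen, as were the ratio of the ribosomes, the promoter tracts and the intron forms described. Some genes that the rule names are not reported here. Libraries of 1 diet differed by more than counting noise (chi-square per degree of freedom 34.5 to 221), so none was taken for the same library deposited again; this does not show separate animals.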

Additional observations from a re-analysis of the deposited data

How the results depend on the processing

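Under the alternatives, 0 members were called in either ribosome, with these exceptions. Without high-NaCl library 2, 1 cytosolic member was called higher (Rpl3) and 1 lower (Rpl36), so leaving out 1 library gave 0 to 1 in each direction for cytosolic and 0 for mitochondrial members. A replicate block called 1 cytosolic member lower (Rpl36, -0.49, adjusted p = 0.042) and 1 mitochondrial member higher (Mrpl19, 0.40, adjusted p = 0.0356). Whether the replicate numbers pair the libraries is not known. Same-numbered libraries deviated with correlations of 0.19, 0.27 and -0.07, and differently numbered ones with -0.29 to 0.10. With 3 libraries per diet these values cannot decide it. Over all genes the calls, higher and lower, were 81 and 55 with total-count scaling, 411 and 448 with DESeq2, 467 and 447 with the replicate block, 1 and 2 with a lane term, 259 and 281 without a filter, 266 and 285 with a GC and length trend removed, and 31 and 92 without the 2 libraries above 25% mitochondrial counts (against 182 and 184). Leaving out 1 library gave 34 to 292 higher and 36 to 255 lower. The calls were 292 and 186 when low-NaCl library 1 was left out, 39 and 36 for library 2 and 59 and 76 for library 3 of that diet. They were 67 and 95 when high-NaCl library 1 was left out, 258 and 255 for library 2 and 34 and 53 for library 3. The lane is nearly confounded with the diet, so the fit with a lane term rests on lane 1, where the median log2 ratio of low-NaCl to high-NaCl was -0.04 (cytosolic), 0.09 (mitochondrial) and 0.01 (all genes).

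Without the 2 libraries above 25% mitochondrial counts, an alternative chosen after seeing the data, the median log2 fold change was 0.052 (cytosolic) and 0.18 (mitochondrial). Leaving out 1 library gave -0.20 to -0.048 and -0.086 to 0.085. Relative to counts without the mitochondrial chromosome, the summed means were 16828 (low-NaCl) and 19724 (high-NaCl) for cytosolic and 9529 and 9467 for mitochondrial members. With TMM factors, as in the report, the cytosolic means of 12893 and 15027 became 12003 to 13508 and 13645 to 16615 with 1 library left out, and the mitochondrial means of 7301 and 7199 became 6775 to 7604 and 6699 to 7849.

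Of 680 values for 38 named genes under an alternative, 38 changed sign, 0 of them called, and the cause was not tested. With both libraries above 25% mitochondrial counts left out these were Mrpl11 (0.16), Mrpl14 (0.18), Mrpl20 (0.41), Mrpl27 (0.0019), Mrpl54 (0.43), Mrps16 (0.27), Mrps26 (0.090), Rpl3 (-0.18), Rpl36 (0.0021), Rpl8 (0.19), Rplp0 (0.32), Rplp1 (0.23), Rplp2 (0.32), Rps10 (0.13), Rps14 (0.23), Rps15 (0.22) and Rps27l (0.20). A lane term turned Mrpl12 (-0.061) and Rpl36al (0.61), total-count scaling Mrpl54 (0.013) and Rpl36al (0.0082), and removal of the GC and length trend Mrpl54 (0.10) and Rps27l (0.037). Leaving out each library in turn turned 10 genes, with ranges of -0.20 to 0.22 for Mrpl12, -0.44 to 0.092 for Mrpl20, -0.089 to 0.24 for Mrpl34, -0.33 to 0.13 for Mrpl54, -0.30 to 0.030 for Mrps16, -0.040 to 0.24 for Mrps6, -0.37 to 0.28 for Rpl36al, -0.041 to 0.54 for Rpl3l, -0.46 to 0.020 for Rplp2 and -0.28 to 0.016 for Rps27l.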

Other observations

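Rps4l, annotated as a transcribed pseudogene and so not a member, was fully countable and measured 108, 77.9 and 80.2 CPM in low-NaCl libraries 1, 2 and 3 and 152, 116 and 115 CPM in high-NaCl libraries 1, 2 and 3. The diets did not overlap, where 11.6% of all tested genes were lower without overlap, and the log2 fold change was -0.53 (SE 0.17, adjusted p = 0.141 in edgeR's quasi-likelihood test). Its parent Rps4x was 2.88% countable and had 4 counts in all.

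The differences between libraries 1 and 2 of each diet went with GC content and transcript length across genes, among members and elsewhere. Over genes with a mean of at least 10 CPM, the Spearman correlation of the log2 ratio of high-NaCl libraries 1 and 2 with GC content was 0.51 over 43 cytosolic members, 0.64 over 56 mitochondrial members and 0.47 over 4704 genes. With transcript length it was -0.49, -0.41 and -0.31. For low-NaCl libraries 1 and 2 the values were 0.36, 0.48 and 0.38 with GC content and -0.57, -0.44 and -0.40 with length. These are correlations across genes of 2 libraries each, the points share those libraries, and genes are not independent replicates. The median GC content of tested members was 51.9% (cytosolic) and 50.4% (mitochondrial), and the median transcript length 745 and 1219 bases.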
